A study of Mus musculus with 6 samples.

Results

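The 10 genes studied here belong to the goblet cell and its mucus, and were followed in the small intestinal mucosa of mice with an intestinal deletion of the RNA-binding protein gene Rbm47 and of their controls. The genes were chosen by name, though with earlier results of these data known: Atoh1, Spdef, Muc2, Muc4, Muc13, Tff3, Fcgbp, Agr2, Zg16 and Spink4. All 10 were found among the 38561 Ensembl genes of the deposited tables, and all 10 passed the filter on low counts that left 16425 genes to test. The study labelled 3 pools Rbm47-IKO and 3 pools wild type, all C57BL/6J mice of 8-12 weeks and both sexes, with RNA from 3 mice in each pool. The deletion was constitutive and driven by Cre under the villin promoter, which is active in the epithelium of both the small and the large intestine but not in muscle, immune or stromal cells. The methods name the control mice as floxed, that is Rbm47 fl/fl without Cre, where the labels say wild type, and the study elsewhere describes the mucosa as jejunal. The methods also give a wider range of ages and of mice in a pool than the labels do. RNA was selected with oligo(dT) and sequenced on an Illumina instrument. The pools were the replicates, and a pool averages over mice, so that the spread between pools is not that between animals. Below, IKO 1, 2 and 3 stand for the pools labelled Rbm47-IKO and wt 1, 2 and 3 for those labelled wild type.

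Goblet cells are the secretory cells of the gut epithelium that make mucus. Atoh1 commits a progenitor to the secretory lineage and Spdef drives goblet cell maturation. The cell then makes the gel-forming mucin Muc2, folds it with help of Agr2 in the endoplasmic reticulum, coats it with O-linked glycans in the Golgi and releases it together with Fcgbp, Zg16 and the trefoil peptide Tff3. Muc4 and Muc13 are membrane-bound mucins of the apical surface, and Muc13 is also made by enterocytes. Spink4 is a secreted protein of the Kazal type of protease inhibitor. In whole mucosa, more goblet cells and more RNA in each goblet cell cannot be told apart, and the same holds for fewer cells and less RNA.

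Each pool gave 31560320 to 38951830 counts on genes. The targeted gene went against the labels. Rbm47 (ENSMUSG00000070780) had 602.7, 624.6 and 619.8 CPM (its count scaled to the normalized library total) in IKO 1 to 3 and 459.8, 449.9 and 472.1 in wt 1 to 3. Every pool labelled Rbm47-IKO was therefore above every wild type pool, with a log2 fold change of 0.42 (SE 0.10, edgeR adjusted p = 0.0751). It was called higher in 2 of 17 fits (lowest adjusted p = 0.00954, in DESeq2) and was 0.27 (adjusted p = 0.443) scaled to the epithelial markers. A gene count adds the reads of all exons, and the exons deleted are not given in the sources used here. The study itself reported almost no Rbm47 mRNA or protein in the intestine of this line. These gene counts do not show that loss, so the genotype of the pools rests here on the labels. Every direction below is that of the pools labelled Rbm47-IKO, in which the gene count of Rbm47 was not lower. The pools also differed in other cells. The summed CPM of 6 smooth muscle markers was 361, 586 and 3302 in IKO 1 to 3 and 90.7, 2803 and 313 in wt 1 to 3, with IKO 3 and wt 2 standing apart. The share of male and female RNA was uneven too, since Xist, made in female cells, had 75.6, 258 and 40.3 CPM in IKO 1 to 3 and 1.09, 150 and 0.686 in wt 1 to 3. Every pool labelled Rbm47-IKO thus held Xist, while wt 1 and wt 3 held almost none, so that sex and genotype are partly confounded. The 6 epithelial markers summed to 6749 to 8468 CPM in the pools labelled Rbm47-IKO and 6953 to 7688 in the wild type pools. Of these 6, 5 had a fitted change above 0 and 1 below, against 49.3% above 0 over all genes. None was called, against 2.70% of all genes, and Cldn7 had the largest change (log2 fold change 0.52, edgeR adjusted p = 0.0740). Scaling to these markers put the median log2 fold change of all genes at -0.15.

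To show where the mucus genes start, the promoters of the mucin Muc2, of Fcgbp and of Muc4 are printed as the 250 bases before the RefSeq start site (GRCm38.p6), all on the plus strand. These are the gel-forming mucin and the pair of genes with the largest fitted differences. Capitals mark the letters CAGCTG, a form of E-box that factors of the Atoh1 class can read, which is its own reverse complement and so reads alike on both strands.
Muc2 promoter, chr7:141690090-141690339: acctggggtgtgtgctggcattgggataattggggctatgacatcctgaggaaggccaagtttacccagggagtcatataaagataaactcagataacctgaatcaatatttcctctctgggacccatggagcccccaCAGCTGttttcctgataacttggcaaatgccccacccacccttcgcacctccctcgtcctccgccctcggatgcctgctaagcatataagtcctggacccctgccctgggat
Fcgbp promoter, chr7:28070986-28071235: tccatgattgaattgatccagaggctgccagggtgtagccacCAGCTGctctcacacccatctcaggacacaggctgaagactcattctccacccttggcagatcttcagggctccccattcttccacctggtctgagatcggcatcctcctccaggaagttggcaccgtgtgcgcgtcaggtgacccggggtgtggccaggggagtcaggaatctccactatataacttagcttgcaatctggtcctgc
Muc4 promoter, chr16:32735636-32735885: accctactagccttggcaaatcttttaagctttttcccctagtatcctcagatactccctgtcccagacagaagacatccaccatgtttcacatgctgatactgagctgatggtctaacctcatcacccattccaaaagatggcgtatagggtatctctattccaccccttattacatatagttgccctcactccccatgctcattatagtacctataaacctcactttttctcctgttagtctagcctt
RefSeq promoters were found for 7 of the 10 genes, and CAGCTG stood in 2 of these 7, beginning 112 bases before the start site in Muc2 and 208 bases before it in Fcgbp. Of 32851 promoters of the same length, 13% held it. A match describes the letters only, and no binding was measured here.

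None of the 10 genes passed the test. With 0.05 as the limit for the Benjamini-Hochberg adjusted p of the edgeR quasi-likelihood test, 0 of 10 were called, where 2.70% of all tested genes were called in either direction and 1.45% were called higher. At an unadjusted p under 0.05 there were 3 of 10 (Muc4, Fcgbp and Atoh1), where all genes gave 16.8%. The same 3 were the genes whose 3 pools labelled Rbm47-IKO all lay above the 3 wild type pools, an arrangement found in 11.7% of all genes, and none had them all below, which 11.6% of all genes had. The fitted change was above 0 in 8 of the 10 genes, against 49.3% of all genes, and the median log2 fold change was 0.27, against -0.01 over all genes. Without wt 3 these were 6 of 10 and 0.17, without IKO 2 they were 7 of 10 and 0.18, with the sum of Y-linked genes as a covariate 7 of 10 and 0.15, and scaled to the epithelial markers 7 of 10 and 0.11, where the median of all genes was -0.15. Goblet genes of one tissue share their cells, so these 10 values are not independent of each other. With 3 pools against 3, an exact permutation test of any one gene cannot give a p below 0.1.

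**Figure D1:**
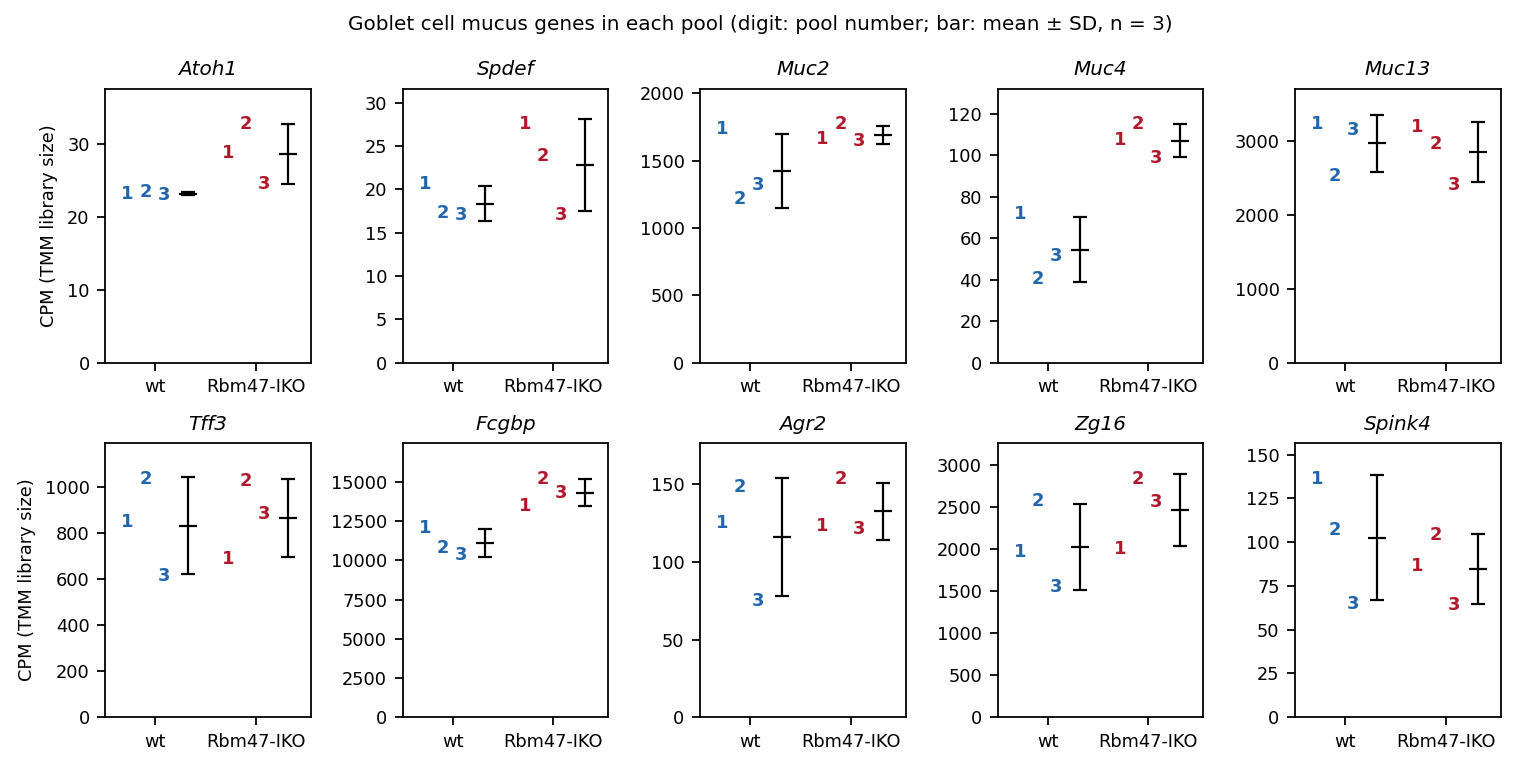
Level of each of the 10 genes in every pool, as CPM on TMM library sizes (y axis, from 0, a scale of its own for each gene), for the wild type pools (blue) and those labelled Rbm47-IKO (red). The digits are pool numbers and the black bar is the mean ± SD of 3 pools; Muc4, Fcgbp and Atoh1 are the 3 genes in which every red digit lies above every blue one.

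The regulators came first. Atoh1 (ENSMUSG00000073043, chromosome 6, 64729146 to 64731233, plus strand) had 28.7, 32.7 and 24.4 CPM in IKO 1 to 3 and 23.1, 23.4 and 22.9 in wt 1 to 3. The wild type pools were nearly equal and each pool labelled Rbm47-IKO lay above them, IKO 3 by the least. The means were 28.6 ± 4.11 and 23.2 ± 0.245 (SD, n = 3), a log2 fold change of 0.30 (SE 0.13, edgeR adjusted p = 0.287). Spdef (ENSMUSG00000024215, chromosome 17, 27714352 to 27728951, minus strand), the maturation factor, had 27.5, 23.8 and 17.0 CPM in IKO 1 to 3 and 20.6, 17.3 and 17.1 in wt 1 to 3. Here IKO 3 lay below all wild type pools, so that the groups overlapped. Its log2 fold change of 0.31 (SE 0.19) was of the same size as that of Atoh1, with a wider error and an edgeR adjusted p of 0.471. Both regulators were lowest among the pools labelled Rbm47-IKO in IKO 3, one of the muscle-rich pools, but neither was lowest among the wild type pools in wt 2, the other. The part of muscle content was not tested beyond a covariate. With the muscle sum as a covariate the log2 fold changes were 0.33 and 0.39 (adjusted p = 0.246 and 0.208). Scaled to the epithelial markers they were 0.14 and 0.13 (adjusted p = 0.680 and 0.785). With a pool left out Atoh1 ran from 0.20 (without IKO 2) to 0.41 (without IKO 3) and Spdef from 0.15 (without IKO 1) to 0.49 (without IKO 3).

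Muc2 (ENSMUSG00000025515), the gel-forming mucin that builds the intestinal mucus layer, had 1660, 1769 and 1647 CPM in IKO 1 to 3 and 1735, 1213 and 1319 in wt 1 to 3. The pools labelled Rbm47-IKO lay close together, and wt 1 lay among them while wt 2 and wt 3 were lower. The means were 1692 ± 67.1 and 1422 ± 276 (SD, n = 3), a log2 fold change of 0.25 (SE 0.16, edgeR adjusted p = 0.504). It was 0.42 without wt 1 and 0.15 without wt 2, and scaled to the epithelial markers it was 0.09 (adjusted p = 0.876).

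The tables counted Muc2 over a short gene model. The counted feature lay at chromosome 7, 141746832 to 141754690 (GRCm38, plus strand) and held 2032 exonic bases, while the Muc2 gene of GENCODE M21 spans 141690340 to 141754693 and has 7127 exonic bases. The counted exons were thus 28.5% of those bases, at the 3′ end. Another 2 counted features, chosen after their values were seen, lay wholly within GENCODE's Muc2 exons on the same strand and carried Ensembl IDs that matched no symbol. ENSMUSG00000095400 (141695703 to 141697247, 399 exonic bases) and ENSMUSG00000094393 (141699186 to 141701375, 711 exonic bases) brought the covered share to 44.1%. Per kilobase of counted exon the 3 features stood at like levels, with 889 ± 58.7, 889 ± 71.4 and 833 ± 33.0 CPM per kb in the pools labelled Rbm47-IKO and 753 ± 139, 702 ± 139 and 700 ± 136 in the wild type pools. The log2 fold changes of the 2 unnamed features were 0.24 (SE 0.15, edgeR adjusted p = 0.493) and 0.34 (SE 0.16, edgeR adjusted p = 0.344), beside the 0.25 of Muc2. Without wt 1 these 2 features were at 0.40 and 0.51, and without wt 3 at 0.15 and 0.24. In all 3 features wt 1 lay at the level of the pools labelled Rbm47-IKO, above wt 2 and wt 3.

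**Figure D2:**
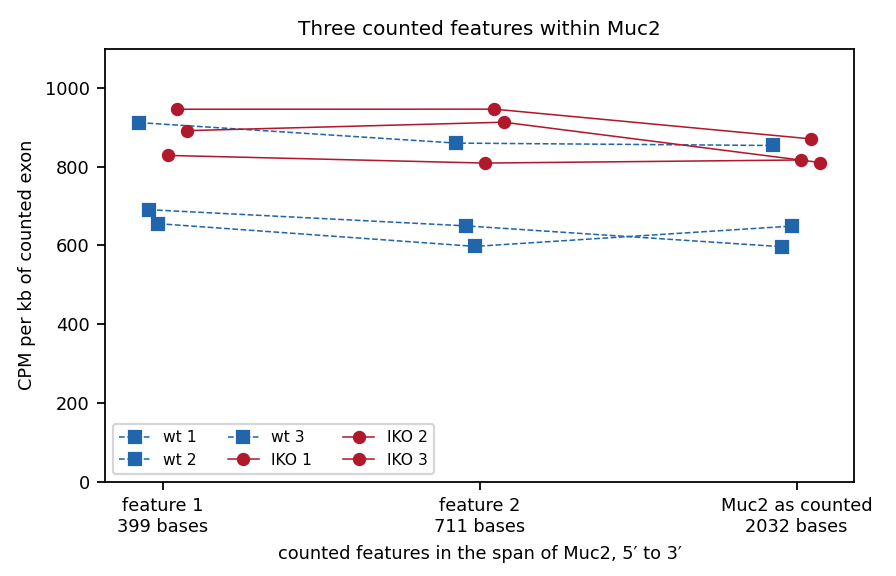
CPM per kilobase of counted exon (y axis, from 0) for the 3 counted features within Muc2, in order from 5′ to 3′ (x axis), with a line for each pool: red circles for the pools labelled Rbm47-IKO and blue squares for wild type. Feature 1 is ENSMUSG00000095400 and feature 2 is ENSMUSG00000094393; in each feature wt 1 runs with the red lines while wt 2 and wt 3 lie below them.

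The primers of the study's quantitative PCR for Muc2, Muc4 and Tff3 were placed on the gene models, since they show which stretch of the mRNA each assay reads. Those of Muc2 and Muc4 are printed.
Muc2 forward primer: gctgcacggacacctctatatg
Muc2 reverse primer: ccagcgaccagcattgc
Muc4 forward primer: tgccaggactgtggattttaact
Muc4 reverse primer: gaatcccgcagggaggaa
The Muc2 pair gave a product of 79 bases in a GENCODE M21 transcript, between 141694376 and 141694536 of chromosome 7 across an intron, and lay outside the counted Muc2 feature and outside the other 2. The Muc4 pair gave 78 bases at 32759234 to 32759311 of chromosome 16, inside the counted exons. The Tff3 pair gave 60 bases, with its ends inside the counted exons of Tff3. The sequencing count of Muc2 and its PCR assay therefore read separate stretches of the gene. The Muc4 assay read a short part of the stretch counted.

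Muc4 showed the largest difference of the 10. Muc4 (ENSMUSG00000079620, chromosome 16, 32735886 to 32782391, plus strand), a membrane mucin, had 107.4, 115.0 and 98.9 CPM in IKO 1 to 3 and 71.8, 40.6 and 51.5 in wt 1 to 3. Each pool labelled Rbm47-IKO was above each wild type pool, and the wild type pools spread more widely than the others. The means were 107.1 ± 8.08 and 54.6 ± 15.8 (SD, n = 3), 1.96-fold higher (95% interval 1.42 to 2.71), and the log2 fold change was 0.97 (SE 0.20, unadjusted p = 0.00146). Its edgeR adjusted p of 0.0518 missed the threshold, while its log2 fold change ranked at percentile 97.9 of all tested genes. Other processing placed it on the other side. The adjusted p was 0.05 or less in DESeq2 (where 7.83% of tested genes were called), in limma-voom (2.62%), with no filter on low counts (1.81%), with a filter of 1 CPM in 3 libraries (4.10%), with the smooth muscle covariate (4.33%) and without wt 1 (1.98%). Over the 6 fits with a pool left out its log2 fold change ran from 0.80 (without wt 2) to 1.22 (without wt 1), with adjusted p from 0.0209 to 0.237. Scaled to the epithelial markers it was 0.80 (adjusted p = 0.142), where the median of all genes moved to -0.15. Muc4 overlaps Muc20 on the opposite strand, and the use of strand in counting is not given in the sources used here. Muc20, a small membrane mucin gene, had 7 to 22 counts in a pool and 0.184 to 0.581 CPM.

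Muc13 (ENSMUSG00000022824, chromosome 16, 33794037 to 33819934, plus strand), the other membrane mucin, did not follow Muc4. It had 3188, 2952 and 2400 CPM in IKO 1 to 3 and 3220, 2522 and 3145 in wt 1 to 3. The lowest pool of each genotype was its muscle-rich pool, IKO 3 or wt 2, and the other pools lay within a narrow range. The log2 fold change was -0.06 (SE 0.17, 95% interval -0.44 to 0.33, edgeR adjusted p = 0.923), and with the muscle covariate 0.04. An antisense gene, Gm15657, overlaps Muc13, so that reads of the pair cannot be told apart without strand.

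**Figure D3:**
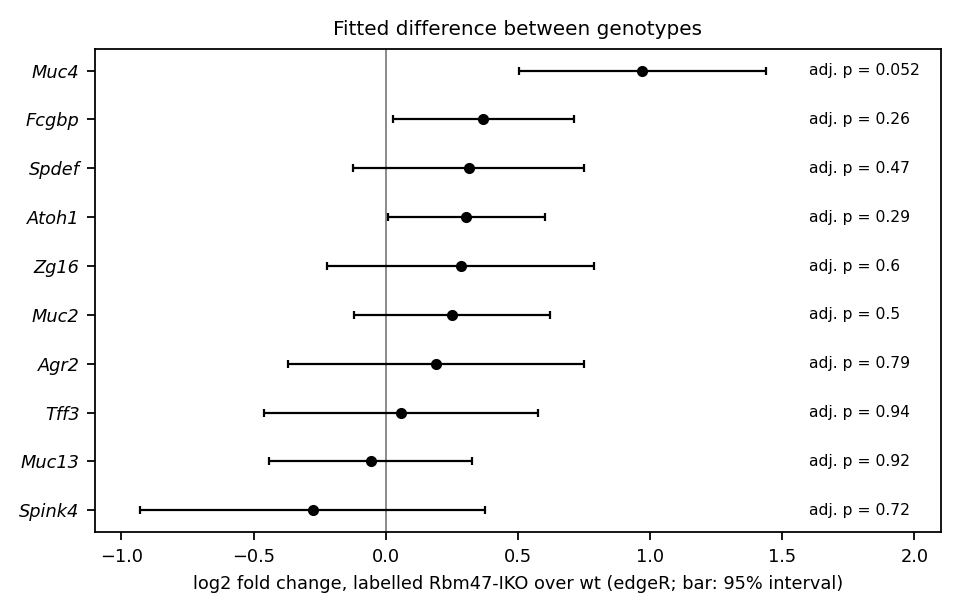
Log2 fold change of the pools labelled Rbm47-IKO over wild type (x axis) for each of the 10 genes, ordered by size, with 95% intervals from the edgeR fit and the adjusted p at the right. The intervals of Muc4, Fcgbp and Atoh1 lie above 0 and the other 7 include it.

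Among the proteins released with the mucin, Fcgbp (ENSMUSG00000047730, chromosome 7, 28071236 to 28120862, plus strand) stood out by its CPM. This large protein of von Willebrand type domains, a major part of the mucus, held 58.5% to 64.6% of the summed CPM of the 10 genes in each pool. CPM grows with the length counted, here 10497 exonic bases, and the mean of Fcgbp per kilobase lay below those of Zg16 and Tff3. It had 13499, 15215 and 14276 CPM in IKO 1 to 3 and 12087, 10816 and 10374 in wt 1 to 3. Each pool labelled Rbm47-IKO was above each wild type pool. The means were 14330 ± 860 and 11092 ± 890 (SD, n = 3), 1.29-fold higher (95% interval 1.02 to 1.64), with a log2 fold change of 0.37 (SE 0.15, unadjusted p = 0.0377, edgeR adjusted p = 0.261). Its adjusted p ran from 0.0518 in DESeq2 to 0.683 without IKO 2, and its log2 fold change was 0.22 (adjusted p = 0.625) scaled to the epithelial markers and 0.32 to 0.44 with a pool left out.

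Zg16 (ENSMUSG00000049350, chromosome 7, 127050156 to 127051977, minus strand), a lectin-like protein that binds Gram-positive bacteria in mucus, had 2005, 2842 and 2566 CPM in IKO 1 to 3 and 1964, 2571 and 1558 in wt 1 to 3. The groups overlapped, since wt 2 lay above IKO 1 and IKO 3, and the log2 fold change was 0.28 (SE 0.22, edgeR adjusted p = 0.596). It ran from 0.13 (without wt 3) to 0.49 (without wt 2) with a pool left out. The Zg16 gene of GENCODE M21 runs on to 127087328, beyond the counted feature, and overlaps Gm44939 and Gm22747 on the opposite strand. Tff3 (ENSMUSG00000024029, chromosome 17, 31125306 to 31129646, minus strand), the trefoil peptide of epithelial repair, had 688.5, 1023 and 882 CPM in IKO 1 to 3 and 846, 1035 and 613 in wt 1 to 3. Its highest and its lowest pool were both wild type, and the log2 fold change was 0.06 (SE 0.22, 95% interval -0.46 to 0.57, edgeR adjusted p = 0.944). Agr2 (ENSMUSG00000020581, chromosome 12, 35992907 to 36004087, plus strand), the disulphide isomerase needed to fold Muc2, had 122.8, 153.6 and 121.3 CPM in IKO 1 to 3 and 125.0, 148.5 and 74.7 in wt 1 to 3. Only wt 3 set the wild type pools apart from the others, and the log2 fold change of 0.19 (SE 0.24, edgeR adjusted p = 0.789) was -0.04 without it.

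Zg16, Tff3 and Agr2 shared a pattern over pools that was not that of genotype. In all 3 genes IKO 2 was the highest of its genotype, wt 2 the highest of the wild type pools and wt 3 the lowest of the 6 pools. IKO 2 and wt 2 were also the pools with the highest Xist in their genotype and with the lowest sum of 4 Y-linked genes, at 53.0 and 87.9 CPM against 139 and 144 in IKO 1 and IKO 3 and 215 and 220 in wt 1 and wt 3. With that sum as a covariate the log2 fold changes were 0.09 for Zg16, -0.15 for Tff3 and -0.01 for Agr2, while those of Muc4 and Fcgbp were 1.08 and 0.35 (edgeR adjusted p = 0.138 and 0.564). The Y-linked sum was itself highest in wt 1 and wt 3, so this covariate is partly tied to genotype. The part of sex in these levels was not tested beyond it.

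Spink4 (ENSMUSG00000028415, chromosome 4, 40920052 to 40931395, plus strand) was the other gene with a fitted change below 0. It had 86.5, 104.0 and 63.9 CPM in IKO 1 to 3 and 136.3, 107.0 and 64.8 in wt 1 to 3. The lowest wild type pool, wt 3, lay near IKO 3, while wt 1 and wt 2 lay above all pools labelled Rbm47-IKO, and the log2 fold change was -0.28 (SE 0.28, edgeR adjusted p = 0.721). It was -0.017 without wt 1 and -0.52 without wt 3. Its order over the 6 pools, from wt 1 down to IKO 3, was the order of the summed Paneth cell markers, which were 873, 984 and 538 CPM in IKO 1 to 3 and 1936, 1375 and 539 in wt 1 to 3. Paneth cells are the secretory cells at the crypt base that release antimicrobial peptides. All 7 Paneth markers had a fitted change below 0, as 8320 of the 16425 genes did, and 0 of 7 passed the test, against 2.70% of all genes. The part of Paneth cell content in the level of Spink4 was not tested.

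Levels between genes were compared as CPM per kilobase of counted exon. The order was the same in both genotypes: Zg16, Tff3, Fcgbp, Muc13, Muc2, Spink4, Agr2, Atoh1, Spdef and Muc4. Zg16 led with 3886 ± 671 CPM per kb in the pools labelled Rbm47-IKO and 3193 ± 802 in the wild type pools (SD, n = 3), and Muc4 closed with 9.11 ± 0.687 and 4.65 ± 1.35. The neighbours Muc13 and Muc2 overlapped in both genotypes and are not ordered beyond their spread. Tff3 with Fcgbp, Atoh1 with Spdef, and Spdef with Muc4 overlapped in the pools labelled Rbm47-IKO, and Fcgbp with Muc13 in the wild type pools. The 10 genes together made up 21414, 24231 and 22097 CPM in IKO 1 to 3 and 20229, 18494 and 17240 in wt 1 to 3, sums that Fcgbp dominates. Muc2 and Zg16 enter the order by the exons counted, and the per-kilobase level of Muc2 over the other 2 features was given above.

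The spread over all 6 pools also ranked the genes. Muc4 varied most, 2.83-fold from wt 2 to IKO 2, followed by Spink4 (2.13-fold) and Agr2 (2.05-fold). Muc13 varied least, 1.34-fold, with Atoh1 at 1.42-fold and Muc2 at 1.46-fold. Within the wild type pools alone Spink4 spread over 1.07 on the log2 scale and Atoh1 over 0.03. For Muc2, Muc13, Tff3, Agr2, Zg16 and Spink4 the log2 range within the wild type pools was larger than the size of the fitted difference between genotypes, as for Muc2 with a range of 0.52 and a log2 fold change of 0.25, and for Atoh1, Spdef, Muc4 and Fcgbp it was smaller. The range within the pools labelled Rbm47-IKO was larger than the difference for Atoh1 (0.42 against 0.30) and Spdef (0.69 against 0.31), and smaller for Muc4 (0.22) and Fcgbp (0.17).

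**Figure D4:**
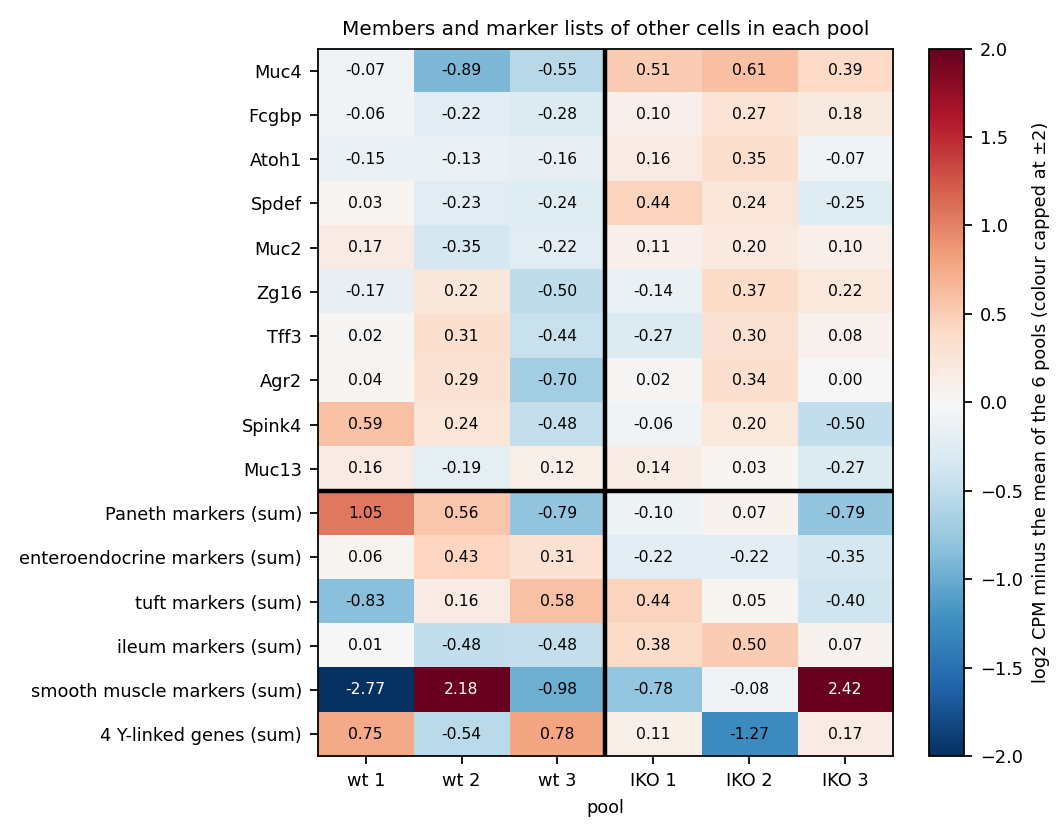
Log2 CPM minus the mean of the 6 pools (colour and printed value, colour capped at ±2) for the 10 genes above the black line and the summed markers of other cells, of the ileum and of the Y chromosome below it, in the 3 wild type and the 3 pools labelled Rbm47-IKO. Muc4, Fcgbp and Atoh1 divide by genotype, Zg16, Tff3 and Agr2 are lowest in wt 3, and the smooth muscle sum stands apart in IKO 3 and wt 2.

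The levels of other cells and gut segments were set beside these values. The sum of 8 enteroendocrine markers was 118 to 129 CPM in the pools labelled Rbm47-IKO and 156 to 201 in the wild type pools, without overlap. Single genes have all pools labelled Rbm47-IKO below in 11.6% of cases. Of 7 tested, 7 had a fitted change below 0 and 1 was called lower, Ghrl (log2 fold change -1.44, edgeR adjusted p = 0.0393), against 1.25% of all genes. Ghrl missed the threshold in each of the 6 fits with a pool left out, with adjusted p from 0.0652 to 0.212, and with all pools when scaled to the epithelial markers (0.0734), with the Y-linked covariate (0.128) and blocked by pool number (0.0967). The 7 enterocyte markers summed to 28381 to 29718 against 30493 to 34359 CPM, also without overlap, but their genes were mixed, with 3 fitted above 0, 4 below and 0 of 7 called, against 49.3% above 0 and 2.70% called over all genes. Fabp2, a fatty acid binding protein of enterocytes, was higher in each pool labelled Rbm47-IKO than in each wild type pool (log2 fold change 0.51, edgeR adjusted p = 0.178). Apoa4, an apolipoprotein, and the sugar-digesting enzyme Sis had all pools labelled Rbm47-IKO below the wild type pools, at -1.01 and -0.39 on the log2 scale (edgeR adjusted p = 0.0802 and 0.271). Apoa4 was called in 3 of 17 fits (lowest adjusted p = 0.000478, in DESeq2) and Fabp2 in 1 of 17 (0.0215, in DESeq2). Tuft markers overlapped, with 69.1 to 124 against 51.3 to 136 CPM. The 5 ileum markers summed to 457 to 616 CPM in the pools labelled Rbm47-IKO and 311 to 439 in the wild type pools, a sum without overlap that Slc51a dominates (log2 fold change 0.62, edgeR adjusted p = 0.0740). Fabp6, the ileal bile acid binding protein, had 31.7, 39.8 and 18.6 CPM in IKO 1 to 3 and 17.2, 3.98 and 2.55 in wt 1 to 3, without overlap (log2 fold change 1.93, SE 0.67, edgeR adjusted p = 0.201; 3.20 without wt 1, adjusted p = 0.0212). Slc10a2 of the same list went the other way, with 17.2, 7.84 and 14.6 CPM in IKO 1 to 3 and 44.3, 3.40 and 7.05 in wt 1 to 3. Its pools overlapped (log2 fold change -0.47, SE 0.84, edgeR adjusted p = 0.864). Of the 5 ileum markers, 3 had a fitted change above 0 and 2 below, and 0 were called, against the same shares over all genes. Slc51a was called in 2 of 17 fits (adjusted p = 0.00423 in DESeq2 and 0.0241 with the smooth muscle covariate). The sum of 5 proximal markers overlapped, with 1522 to 1862 against 1324 to 1961 CPM and 0 of 5 called, against 2.70% of all genes. Of these 5, Gata4 and Slc40a1 had all pools labelled Rbm47-IKO above the wild type pools (log2 fold change 0.42 and 0.45, edgeR adjusted p = 0.170 and 0.274). Cyp3a11 had them all below (-0.80, edgeR adjusted p = 0.0721), and the others overlapped. Over all genes 11.7% have them all above and 11.6% all below. The 5 colon markers overlapped, with 95.6 to 179 against 93.1 to 108 CPM and Car1 at 0 in every pool. Within that list Hoxb13, a homeobox gene of the distal gut, had 2.60, 3.54 and 5.18 CPM in IKO 1 to 3 and 0, 0.553 and 0.302 in wt 1 to 3, without overlap (log2 fold change 3.69, SE 0.85, edgeR adjusted p = 0.0708), and it was called in 5 of 17 fits. Goblet cells are denser toward the distal small intestine, and the part of the segment sampled in the levels of Muc4, Fcgbp and Atoh1 was not tested.

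Another 19 goblet cell genes of a list were measured and tested. Of these, 0 were called, against 2.70% of all genes, 16 had a fitted change above 0, against 49.3%, and the median log2 fold change was 0.19, against -0.01. Retnlb, a goblet cell protein directed against bacteria, and Creb3l1, a transcription factor of the secretory pathway, had the largest fitted changes. Creb3l1 had 16.4, 17.3 and 13.0 CPM in IKO 1 to 3 and 9.15, 9.83 and 6.56 in wt 1 to 3, without overlap, with a log2 fold change of 0.88 (SE 0.20, edgeR adjusted p = 0.0672). Retnlb was low, at 0.265 to 2.59 CPM, and its log2 fold change of 1.50 (SE 0.74, edgeR adjusted p = 0.370) rested on overlapping pools. It was 0.69 without IKO 2, 2.15 without wt 2 and 0.65 with the Y-linked covariate. The other 3 genes of the list with an unadjusted p under 0.05 were chosen after their values were seen. Clca1, a metalloprotease of the mucus, had 4075, 4506 and 2982 CPM in IKO 1 to 3 and 2551, 2492 and 2583 in wt 1 to 3, giving 0.60 on the log2 scale (edgeR adjusted p = 0.123). Cdx2, the homeobox factor of intestinal identity, differed by 0.56 on the log2 scale (edgeR adjusted p = 0.0835). Hepacam2, an adhesion protein of secretory cells, went the other way, with 38.1, 38.1 and 32.9 CPM in IKO 1 to 3 and 52.7, 47.5 and 52.5 in wt 1 to 3 (log2 fold change -0.48, edgeR adjusted p = 0.0620). As Muc4 did, Creb3l1, Clca1, Cdx2 and Hepacam2 passed the adjusted threshold in DESeq2, where 7.83% of all tested genes were called.

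Other mucins and trefoil factors gave 11 genes in the tables, of which 5 were tested and 0 called, against 2.70% of all genes. Muc3, a membrane mucin of enterocytes, stood at 1344 ± 114 CPM per kb in the pools labelled Rbm47-IKO and 1229 ± 136 in the wild type pools, beside 937 ± 133 and 975 ± 126 for Muc13. Muc20 (log2 fold change 0.73, SE 0.45, edgeR adjusted p = 0.478) and Muc6, a gel-forming mucin of the stomach and duodenum (0.20, SE 0.37, edgeR adjusted p = 0.872), had the largest fitted changes of the 5, and each had overlapping pools. Muc20 was 1.20 without wt 1 and 0.46 without wt 2. Tff1, the gastric trefoil peptide, was at 0 in every pool, and Muc5ac, the gastric surface mucin, had at most 1 count in a pool.

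A list of genes that build the O-glycans of mucins held called genes. Of 22 tested, 3 fell and 0 rose at an edgeR adjusted p of 0.05 or less, where 1.25% of all tested genes were called lower and 1.45% higher, 11 had a fitted change above 0 and 11 below, and the median log2 fold change was -0.03. The 3 genes act early in the pathway. C1galt1c1 (chromosome X, 38630785 to 38635087) encodes Cosmc, the chaperone that C1galt1 needs to fold. It had 11.8, 12.8 and 11.7 CPM in IKO 1 to 3 and 21.3, 28.1 and 27.0 in wt 1 to 3, and fell by 1.07 on the log2 scale (SE 0.14, edgeR adjusted p = 0.0139). C1galt1 (chromosome 6, 7844842 to 7872047), the enzyme that makes the core structure on which most longer O-glycans are built, had 32.2, 29.3 and 26.9 CPM in IKO 1 to 3 and 46.8, 46.4 and 53.9 in wt 1 to 3. It fell by 0.73 on the log2 scale (SE 0.12, edgeR adjusted p = 0.0244). Galnt7 (chromosome 8, 57523828 to 57653032), a transferase that adds GalNAc to partly glycosylated peptides, had 48.5, 44.3 and 40.0 CPM in IKO 1 to 3 and 75.8, 75.3 and 87.4 in wt 1 to 3. It fell by 0.84 on the log2 scale (SE 0.12, edgeR adjusted p = 0.0153). In all 3 the pools of the genotypes did not overlap. C1galt1c1 was called in 13 of 17 fits and C1galt1 and Galnt7 in 11 of 17, each with a change below 0 in each of these fits. All 3 missed the threshold without IKO 1, without IKO 2, without IKO 3 and without wt 3, with log2 fold changes from -1.12 to -1.02, -0.80 to -0.66 and -0.92 to -0.77 for C1galt1c1, C1galt1 and Galnt7. In these fits C1galt1c1 had adjusted p of 0.0809, 0.0978, 0.0570 and 0.0644, C1galt1 0.0843, 0.166, 0.0858 and 0.0803, and Galnt7 0.0653, 0.117, 0.0626 and 0.0621. With the Y-linked covariate C1galt1c1, an X-linked gene, stayed called (log2 fold change -1.15, adjusted p = 0.0480), and C1galt1 (-0.70, adjusted p = 0.107) and Galnt7 (-0.82, adjusted p = 0.0766) did not. Blocked by pool number, the last 2 had 0.0800 and 0.0660. These 3 genes are expressed by other epithelial cells too, and the part of goblet cells in the difference was not tested.

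At the other end of the list, Fut2, the fucosyltransferase that caps mucin glycans, had 58.8, 52.4 and 17.9 CPM in IKO 1 to 3 and 3.56, 14.8 and 12.7 in wt 1 to 3. All pools labelled Rbm47-IKO were above the wild type pools, but both groups spread widely, and the log2 fold change of 2.05 (SE 0.58) had an edgeR adjusted p of 0.120. Besides the 3 called genes and Fut2, a further 6 genes of the list, chosen after their values were seen, had pools that did not overlap and missed the adjusted threshold. Of all genes 11.7% had the pools labelled Rbm47-IKO all above and 11.6% all below. Those above were Galnt3, an initiating GalNAc transferase (log2 fold change 0.64, edgeR adjusted p = 0.0536), Gcnt3, which makes branched cores (0.84, edgeR adjusted p = 0.107), and B3gnt7, which extends the chains (1.06, edgeR adjusted p = 0.112). Those below were the sialyltransferase St3gal1 (log2 fold change -0.56, edgeR adjusted p = 0.112), Gcnt4, another branching enzyme (-0.40, edgeR adjusted p = 0.202), and Galnt6, another GalNAc transferase (-0.29, edgeR adjusted p = 0.329). Without wt 3 the last 2 were -0.25 and -0.16. DESeq2, which called 7.83% of all tested genes, called Galnt3, Gcnt3 and B3gnt7 higher, with adjusted p of 0.00558, 0.00622 and 0.00401, and St3gal1 lower (0.0385). Galnt3 was called in 5 of 17 fits.

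**Figure D5:**
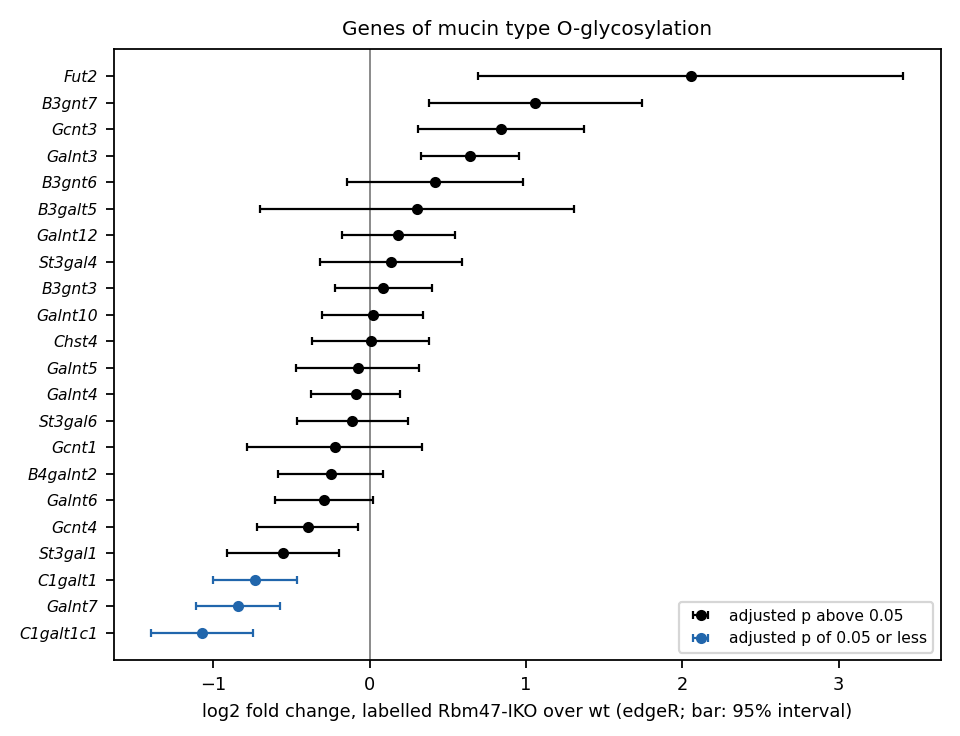
Log2 fold change of the pools labelled Rbm47-IKO over wild type (x axis, with 95% intervals from the edgeR fit) for the 22 tested genes of mucin O-glycosylation, ordered by size. The 3 genes in blue, C1galt1, Galnt7 and C1galt1c1, had an adjusted p of 0.05 or less, and all lie below 0.

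Outside the 10 goblet genes, the 5 tested genes whose levels over the 6 pools ran closest to their mean were not of the goblet lists. By the root-mean-square distance between centred log2 CPM profiles over 6 pools, the 5 nearest of the other tested genes were Mrpl15 (0.0422), Cbx2 (0.0427), H2afv (0.0477), Eef1a1 (0.0495) and Rps9 (0.0607). They encode a mitochondrial ribosomal protein, a Polycomb protein, a histone variant, a translation elongation factor and a ribosomal protein. The mean profile itself was small, from -0.35 in wt 3 to 0.29 in IKO 2, and none of the 5 genes was called. It averages unlike profiles, such as those of Muc4 and Spink4, so nearness to it cannot show how far goblet genes follow each other.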

How the data were processed

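RNA-Seq of 6 pools, 3 per genotype, was analysed from 1 table per pool. According to the submitters' processing notes, reads were processed with STAR 2.5.1a and featureCounts 1.4.6-p5 (Subread) on GRCm38; the use of strand is not given in the sources used here. The authors deposited raw counts per Ensembl gene, with CPM and RPKM columns that were recomputed from those counts to within 4.9e-11 and not used further. Of 38561 IDs, 36639 matched a symbol in GENCODE M21, and unmatched IDs held 0.369% of the counts. Positions are those of GENCODE M21 (GRCm38) or of the tables.

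After filterByExpr and TMM normalization, 16425 genes entered the edgeR 4.0.16 quasi-likelihood test in R 4.3.3. A gene was called where its p, adjusted by Benjamini-Hochberg over these genes, was at most 0.05. CPM in the text use TMM library sizes, log2 CPM a prior count of 2, and values per kb the exonic length in the tables. Intervals are 95% intervals of the fit. Reads are not independent molecules, and p-values measure the spread between pools. Alternatives were RLE, library size or epithelial marker scaling, DESeq2 1.42.0, limma-voom (limma 3.58.1), other filters, covariates, the pool number as a block and each of the 6 pools left out.

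The genes, lists and tests were chosen with earlier results of these data known. The genes named are the 10, Rbm47, the called genes and the 2 largest fitted changes of each other goblet, mucin and glycosylation list, the 5 nearest profiles and, of marker lists, genes at 0. Clca1, Cdx2, Hepacam2, Galnt3, Gcnt3, B3gnt7, Muc3, Muc3a, Muc5ac, Tff1, Ghrl, Cldn7, Fabp2, Apoa4, Sis, Slc51a, Fabp6, Slc10a2, Gata4, Slc40a1, Cyp3a11, Hoxb13, St3gal1, Gcnt4, Galnt6, Xist and the 2 features within Muc2 are named beyond the rule, with their values known. Primer sequences were taken from the study's supplement and matched to GENCODE M21 transcripts.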

Additional observations from a re-analysis of the deposited data

How the results depend on the processing

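The genes called, 443 of all tested, were 259 when scaled to 6 epithelial genes, 1131 in DESeq2, 711 with the smooth muscle covariate and 59 with the Y-linked covariate, and ran from 0 to 431 with a pool left out. The 0 came without IKO 2 (edgeR, 1729 genes at an unadjusted p under 0.05), and the count was 32 without IKO 1, 119 without IKO 3 and 11 without wt 3. Of the 10 goblet genes 1, Muc4, was called in DESeq2, in limma-voom, with no filter on low counts, with 1 CPM in 3 libraries and with the smooth muscle covariate, and 0 to 1 with a pool left out (Muc4 without wt 1). Over all alternatives 143 values of the 10 genes kept their direction and side of the threshold, 6 passed it (all Muc4) and 11 changed sign, none of these a called value. The changed signs (log2 fold change) were Muc13 at 0.0353 with the muscle covariate and 0.00248 with the Y-linked covariate; Tff3 at -0.0835 scaled to epithelial genes, -0.00807 with the muscle covariate and -0.147 with the Y-linked covariate; and Agr2 at -0.0112 with the Y-linked covariate. With a pool left out Muc13 ran from -0.159 (without wt 2) to 0.0536 (without IKO 3) and was 0.00475 without wt 1, Tff3 ran from -0.117 (without wt 3) to 0.248 (without wt 2) and was -0.0827 without IKO 2, Agr2 ran from -0.0402 (without wt 3) to 0.412 (without wt 2), and of the other genes Muc6 ran from -0.249 (without IKO 3) to 0.476 (without IKO 2). Muc3 was -0.0191 scaled to epithelial genes. The cause was not tested.

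The pool numbers did not pair the samples. Same-numbered pools correlated at 0.41, -0.00258 and -0.28, and IKO 1 was the only pool labelled Rbm47-IKO closest to its own number. With the pool number as a replicate block 100 genes and 0 of the 10 were called, Muc4 at 1.01 (adjusted p = 0.0877).

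The lowest count of any of the 10 genes in a pool was 556 (Spdef in IKO 3). Each genotype had 3 pools.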

Other observations

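Muc3 and Muc3a are listed as separate genes, with 73846 to 99021 and 1056 to 1951 counts in a pool. Near-identical mucin repeats can share reads, and their split is uncertain. Neither was called.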
